A study of Mus musculus with 7 samples.

Results

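Among the smooth muscle barcodes of 7 mouse aorta libraries, 1833 carried transcripts of at least 3 of 8 genes known from cartilage, bone and matrix biology, and these barcodes, here called members, are described. A barcode stands for 1 captured cell, and a UMI (unique molecular identifier) for 1 captured RNA molecule. The rule kept barcodes with 200 or more genes detected and at most 25% of UMIs from mitochondrial genes. It asked for 1 or more UMIs of both Acta2 and Tagln, contractile genes of smooth muscle, and for 0 UMIs of Ptprc, Pecam1 and Pdgfra, which mark leukocytes, endothelial cells and fibroblasts. Barcodes that met this smooth muscle gate became members with 1 or more UMIs of at least 3 of Chad, Sox9, Frzb, Enpp2, Lamc3, Smoc1, Sost and Tfap2b. Of 76359 barcodes, 68662 were kept and 15816 met the gate, so that members made up 11.6% of the gate and 2.67% of the kept barcodes. The levels of the 13 genes of the rule chose the members and describe the choice. They are given without a test, except where a marker was measured in barcodes that the other 7 markers had chosen.

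The aortas came from 3 Slc38a2flox/flox libraries, the controls, and 4 Slc38a2deltaEC libraries, labelled as lacking the floxed gene in endothelial cells. Slc38a2 encodes a sodium-coupled carrier of neutral amino acids. All 7 libraries came from mice fed a high-salt diet for 3 weeks, so no group on ordinary salt was compared. The tissue was digested with a mixture of enzymes, and each suspension was made into a library on the BD Rhapsody system, which pairs cells with barcoded beads in microwells. The sources used here do not give strain, age, the promoter that drives the deletion or the number of animals per library. The p-values therefore measure only the spread between libraries, which may be technical. The cell type field of the labels reads goblet cells. In members 5 of 7 goblet cell genes had 0 UMIs, and the summed level of all 7 genes lay between 0 and 1.23 CPM (UMIs scaled to a total of 1000000).

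The libraries held 161, 253 and 228 members in flox libraries 1 to 3, and 244, 318, 611 and 18 in knockout libraries 1 to 4. Knockout library 4 had only 311 gate barcodes and 102340 UMIs from members, against 4098348 in knockout library 3. Members were the deeper barcodes, with library medians of 2723 to 6347 UMIs against 2532.5 to 4916 in the other smooth muscle gate barcodes, and members had the higher median in each library. Their mitochondrial share was slightly lower, with medians of 10.3 to 16.6% against 11.4 to 17.9%. A doublet caller marked 18 members (0.982%) and 185 other gate barcodes (1.32%). Of 73474 distinct barcode sequences, 2826 occurred in more than 1 library.

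Smooth muscle cells of the aortic media can leave the contractile state, and in diseased arteries some take on genes of cartilage cells. Sox9 is the master transcription factor of cartilage, and Chad (chondroadherin) is a cartilage matrix protein that binds cells to collagen. Frzb and Sost encode secreted Wnt antagonists, and sclerostin, the product of Sost, restrains bone formation. Enpp2 encodes autotaxin, the enzyme that makes the signalling lipid lysophosphatidic acid. Lamc3 encodes a laminin chain, Smoc1 a matricellular protein that modulates BMP signalling, and Tfap2b a transcription factor of neural crest derivatives. The smooth muscle of the ascending aorta and arch descends largely from the neural crest, and that of the descending aorta from mesoderm. Hox genes record position along the body axis.

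In the mouse genome build mm10 (GENCODE vM21 annotation), 3 of the 8 markers lie on chromosome 11: Chad at 94565047 to 94569127, Sost at 101962458 to 101967015, and Sox9 at 112782224 to 112787760. Frzb (80411970 to 80447625) and Lamc3 (31887291 to 31946539) lie on chromosome 2. Enpp2 lies on chromosome 15 from 54838901 to 54952892, Smoc1 on chromosome 12 from 81026808 to 81186414, and Tfap2b on chromosome 1 from 19208914 to 19238576.

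The proposed name for these barcodes, chondrocyte-like smooth muscle cells, was met only in part by the markers. Sost was detected in 94.2% of members and Smoc1 in 86.4%, but both were also common in the other gate barcodes, at 71.8% and 28.1%. Both genes together were present in 1485 members (81.0%), and 934 members (51.0%) held Sost, Smoc1 and exactly 1 further marker. That further marker was Frzb alone in 266 members, Sox9 alone in 232, Enpp2 alone in 211 and Lamc3 alone in 201. Over all members, Frzb was detected in 45.6%, Enpp2 in 41.4%, Sox9 in 39.2%, Lamc3 in 37.6% and Tfap2b in 11.8%. In the other gate barcodes these 5 genes lay between 0.22% and 3.77%. Chad was detected in 24 members (1.31%) and in 0.05% of the other gate barcodes. Of the rule's choices, 1180 members sat at exactly 3 markers, 379 held 4, 173 held 5, 76 held 6 and 25 held 7, while 4494 gate barcodes lay just outside with 2. Because members are called by the rule and not by the proposed name, no cell type name is used for them.

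**Figure D1:**
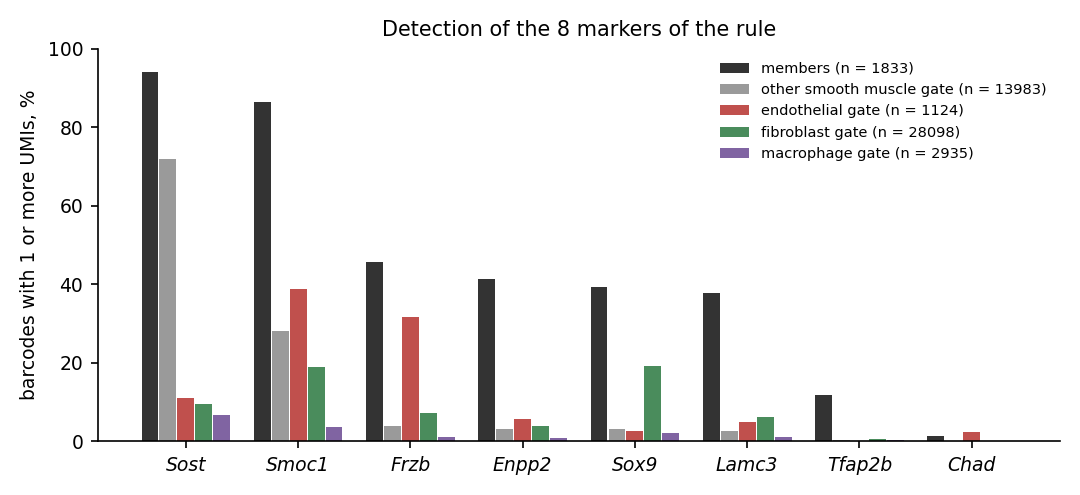
Share of barcodes with 1 or more UMIs of each of the 8 markers (y axis, %), in members, the other smooth muscle gate barcodes, and gates for endothelial cells, fibroblasts and macrophages. Sost and Smoc1 reach 94.2% and 86.4% of members, and Chad 1.31%; the macrophage gate gives the background level of each gene.

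Free RNA can put a few UMIs of a gene into cells that do not make it, so the markers were also counted in barcodes that should lack them. In 2935 macrophage gate barcodes, with a median of 5397 UMIs against 5303 in members, Sost was detected in 6.68%, Smoc1 in 3.68%, Sox9 in 2.11% and Frzb in 1.12%. Enpp2 was detected in 0.920%, Lamc3 in 1.02% and Tfap2b in 0.239%. At least 3 of the 8 markers were found in 0.613% of these barcodes. That share is no background for membership, since smooth muscle barcodes often held Sost and Smoc1 of their own. In the 934 members with Sost, Smoc1 and exactly 1 further marker, 1 stray UMI of that marker would suffice. How many members free RNA could make was not tested. Fibroblast and endothelial gate barcodes were no clean background, since each had markers of its own. Sox9 was detected in 19.2% of 28098 fibroblast gate barcodes, and Frzb in 31.8% and Smoc1 in 38.7% of 1124 endothelial gate barcodes. At least 3 markers occurred in 4.64% and 7.65% of these gates.

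The smooth muscle genes of the rule were abundant in most members. The median member held 47 Acta2 and 30 Tagln UMIs, and 105 members (5.73%) had 5 or fewer Acta2 UMIs, against 9.16% of the other gate barcodes. In the 274 members with 5 or more markers, the median was 26.5 Acta2 UMIs. Acta2 averaged 9506 ± 2531 CPM in members and 12796 ± 2464 CPM in the other gate barcodes (SD, n = 7 libraries). Both genes were part of the gate, so these values describe the choice.

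Several cartilage matrix transcripts, but not all, were concentrated in 2 barcodes of flox library 3, which were singled out after their values were seen. They held 224 and 609 Chad UMIs, 833 of the 958 in all members (87.0%). Of Col2a1, the main collagen of cartilage, they held 142 of 145 UMIs (97.9%), and of Cnmd, the cartilage protein chondromodulin, all 17. They also held 1045 of the 1594 UMIs of Cytl1 (65.6%), a small secreted protein first known from cartilage and blood progenitors. In these 2 barcodes Acta2 stood at 2 and 11 UMIs, Myh11, the smooth muscle myosin, at 1 and 0, and Rgs5 at 0 in both, at totals of 7840 and 22642 UMIs. Sox9 stood at 5 and 36 UMIs, Comp at 22 and 29, and Ucma at 9 and 16. Most Comp lay elsewhere: 207 of its 258 UMIs were in the remaining members, as were 199 of the 213 UMIs of Hapln1, another gene of the cartilage matrix list. The remaining 1831 members together held 125 Chad and 3 Col2a1 UMIs. Acan, which encodes the cartilage and vascular proteoglycan aggrecan, was spread more widely: 261 members (14.2%) had it, and the 2 barcodes held 43 of its 531 UMIs.

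Each marker was then measured in barcodes chosen without it. Gate barcodes were thinned to 1500 UMIs each, so that depth did not choose them. Those with at least 3 of the other 7 markers were compared with those with 0, as a log2 ratio of CPM plus 10 in each library with 10 or more chosen barcodes. Sox9 was higher by 2.51 ± 0.649 on the log2 scale, Frzb by 3.42 ± 0.869, Enpp2 by 3.55 ± 1.08, Lamc3 by 3.10 ± 0.727 and Tfap2b by 2.62 ± 0.574 (mean ± SD, n = 6 libraries each). Each of these 5 was higher in 6 of 6 libraries, with p = 0.03125 in an exact two-sided sign-flip permutation test, the smallest that 6 libraries allow. Smoc1 was higher by 2.13 ± 0.514 in 5 of 5 libraries (exact permutation p = 0.0625, the smallest that 5 libraries allow). Sost was higher by 0.60 ± 0.507, in 4 of 5 libraries (exact permutation p = 0.125), and Chad was higher in 2 of 6 (0.44 ± 2.41, exact permutation p = 0.75). After Benjamini-Hochberg adjustment 0 of the 8 were under 0.05. The pattern itself was known from the way the rule was proposed, and it is a description of how the markers travel together. The p-values therefore give no support for the rule or for a cell type. Barcodes with 0 of all 8 markers held more RNA of other cells, as given below. The comparison barcodes used here were not matched for such RNA.

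In thinned CPM, Sox9 stood at 78.4, 116 and 173 in the chosen barcodes of flox libraries 1 to 3, and at 118, 199 and 244 in knockout libraries 1 to 3. In barcodes with 0 of the other markers it stood at 14.8, 22.9 and 23.3, and at 16.9, 14.5 and 12.9. The ranges did not overlap. Chad differed: it was at 0 in the chosen barcodes of 4 of 6 libraries, at 285 in flox library 3 and at 26.0 in knockout library 3. Without flox library 3 the mean Chad difference was -0.42.

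The share of members among smooth muscle gate barcodes did not separate the genotypes. It was 5.88%, 12.8% and 11.9% in flox libraries 1 to 3, and 9.61%, 13.9%, 15.1% and 5.79% in knockout libraries 1 to 4. Flox library 1 and knockout library 4 were low and the groups overlapped. The means were 10.2 ± 3.77% (SD, n = 3) and 11.1 ± 4.25% (SD, n = 4). The difference was 0.908 percentage points, with p = 0.8 by exact permutation of the 7 libraries (two-sided, 35 arrangements, smallest possible p 0.0286). When each barcode was thinned to 1500 UMIs, the shares were 1.39%, 4.42% and 5.73% in the flox libraries, and 1.81%, 5.47%, 4.33% and 3.13% in the knockouts. This left out 650, 272 and 230 shallower gate barcodes of the flox libraries and 110, 110, 418 and 55 of the knockouts. The difference was then -0.163 points (exact permutation p = 0.971), so its sign changed. Thinning and the loss of shallower barcodes came together, and their effects cannot be told apart. Barcodes with 5 or more markers, a stricter choice made after the data were seen, made up 0.256%, 1.57% and 1.87% of the gate in flox libraries, and 0.67%, 3.19%, 2.67% and 0.643% in knockouts (exact permutation p = 0.571). A p above the threshold in 3 against 4 libraries does not show that the shares are alike.

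**Figure D2:**
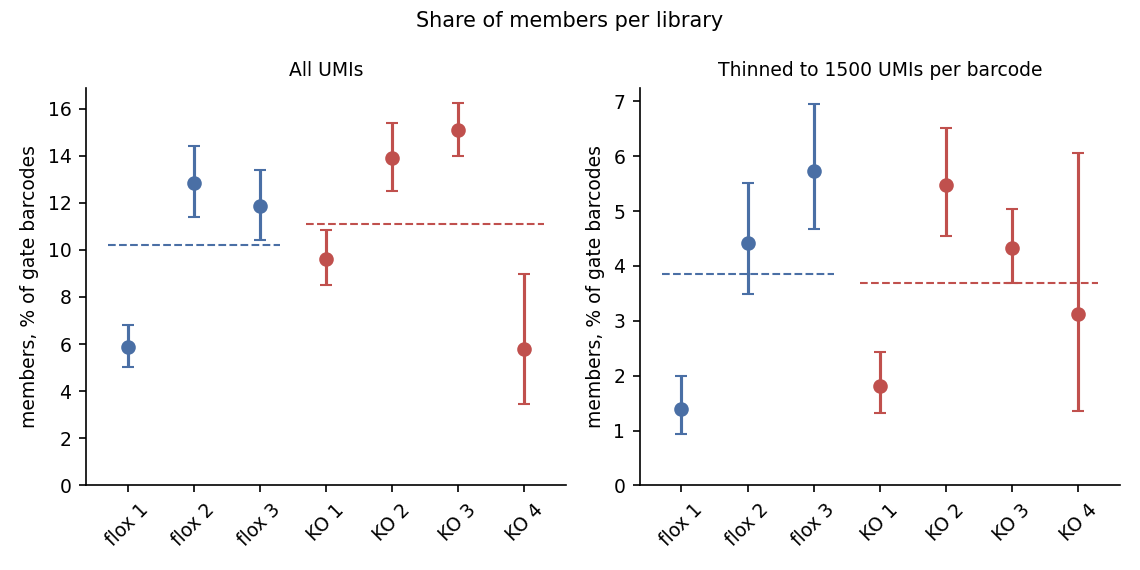
Members as a percentage of smooth muscle gate barcodes in each library, from all UMIs (left) and after thinning to 1500 UMIs per barcode (right); bars are exact 95% binomial intervals, which cover counting error only, and dashed lines are group means. The thinned shares lie between 1.39% and 5.73%, and the 2 genotypes overlap in both panels.

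Members did not form 1 population in the other genes. All gate barcodes were clustered on variable genes from which the 13 rule genes and the mitochondrial genes had been removed, which gave 7 clusters. Cluster 7 held 551 barcodes (3.48% of the gate), and 468 of them (84.9%) were members. It took in 25.5% of all members, but 204 of the 274 with 5 or more markers (74.5%). Of barcodes with 0, 1 and 2 markers, 0.149%, 0.279% and 1.34% fell in cluster 7. The share was 9.07% with exactly 3 markers and 41.4% with 4. The members just inside the threshold of the rule therefore lay mostly outside this cluster. A cluster is defined by its genes, so its leading genes are named as a description, with no test: Rgs5, Gxylt2, Adamtsl1, Fbln5, Mfap5, Sfrp2, Col15a1 and Sema3c.

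The other 1365 members were divided over the remaining 6 clusters. Cluster 1, led by Plcb4, Dmd and Prelp, held 435. Cluster 3, led by the immediate early genes Egr1, Fos and Atf3, which respond within minutes to stress such as tissue digestion, held 419. Clusters 2, 4, 5 and 6 held 244, 146, 78 and 43. Rgs5, a regulator of G protein signalling known from pericytes and some arterial smooth muscle, was detected in 98.9% of the members in cluster 7 and in 70.6% of the others. Median depth was lower in cluster 7, at 3860 UMIs, than in the members outside it, at 5831.

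Cluster 7 was very unevenly spread over the libraries. It made up 0.365%, 5.08% and 6.08% of the gate in flox libraries 1 to 3, and 1.14%, 5.20%, 4.22% and 1.61% in knockout libraries 1 to 4. Flox library 1 and knockout library 1 were both low although each had over 2500 gate barcodes, and the highest and lowest values were both in flox libraries. The low libraries had 10 and 29 barcodes in the cluster, and knockout library 4 had 5.

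**Figure D3:**
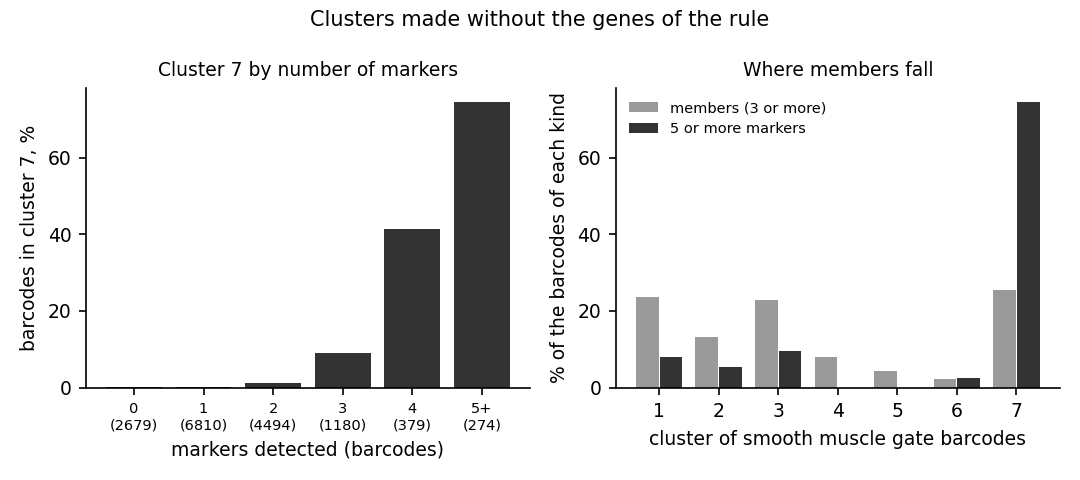
Left, percentage of smooth muscle gate barcodes in cluster 7 by the number of markers detected, with the number of barcodes in brackets; right, percentage of members and of barcodes with 5 or more markers in each of the 7 clusters. The share in cluster 7 climbs from 0.149% with 0 markers to 74.5% with 5 or more, while members as a whole spread over clusters 1, 2, 3 and 7.

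Levels in the 2 kinds of member were set side by side in the 5 libraries with at least 20 barcodes of each (flox 2 and 3, knockout 1 to 3), leaving out the 2 Chad-rich barcodes. These are CPM of all UMIs, and they describe the clusters without a test. Adamtsl1, an ADAMTS-like matrix protein without protease activity, stood at 647 and 806 CPM in cluster 7 members of the flox libraries and at 612, 602 and 515 in the knockouts. In the other members it stood at 18.4, 90.3, 16.6, 41.9 and 14.9, and in the remaining gate it averaged 19.3. Msx2, a homeobox factor of outflow tract and bone, averaged 57.8 CPM in cluster 7 members, 5.70 in other members and 1.12 in the remaining gate. Pthlh, the parathyroid hormone-like signal that paces growth plate cartilage, averaged 37.5, 5.48 and 2.40. Runx2, the master factor of bone formation, averaged 27.4, 3.22 and 1.85.

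Other genes were low in cluster 7 members. Tnc, the matrix glycoprotein tenascin C, averaged 3.78 CPM there, against 107 in other members and 118 in the remaining gate. Rbp4, the plasma carrier of retinol, averaged 42.2, 272 and 322. Hoxc10 had 0 UMIs in cluster 7 members of all 5 libraries and averaged 12.7 CPM in other members. Mgp, matrix Gla protein, an inhibitor of vascular calcification, was also lowest in cluster 7 members, in all 5 libraries, at a mean of 2537 CPM against 5121 in other members and 3740 in the remaining gate. Acan averaged 34.5 CPM in cluster 7 members, 49.1 in other members and 24.1 in the remaining gate.

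**Figure D4:**
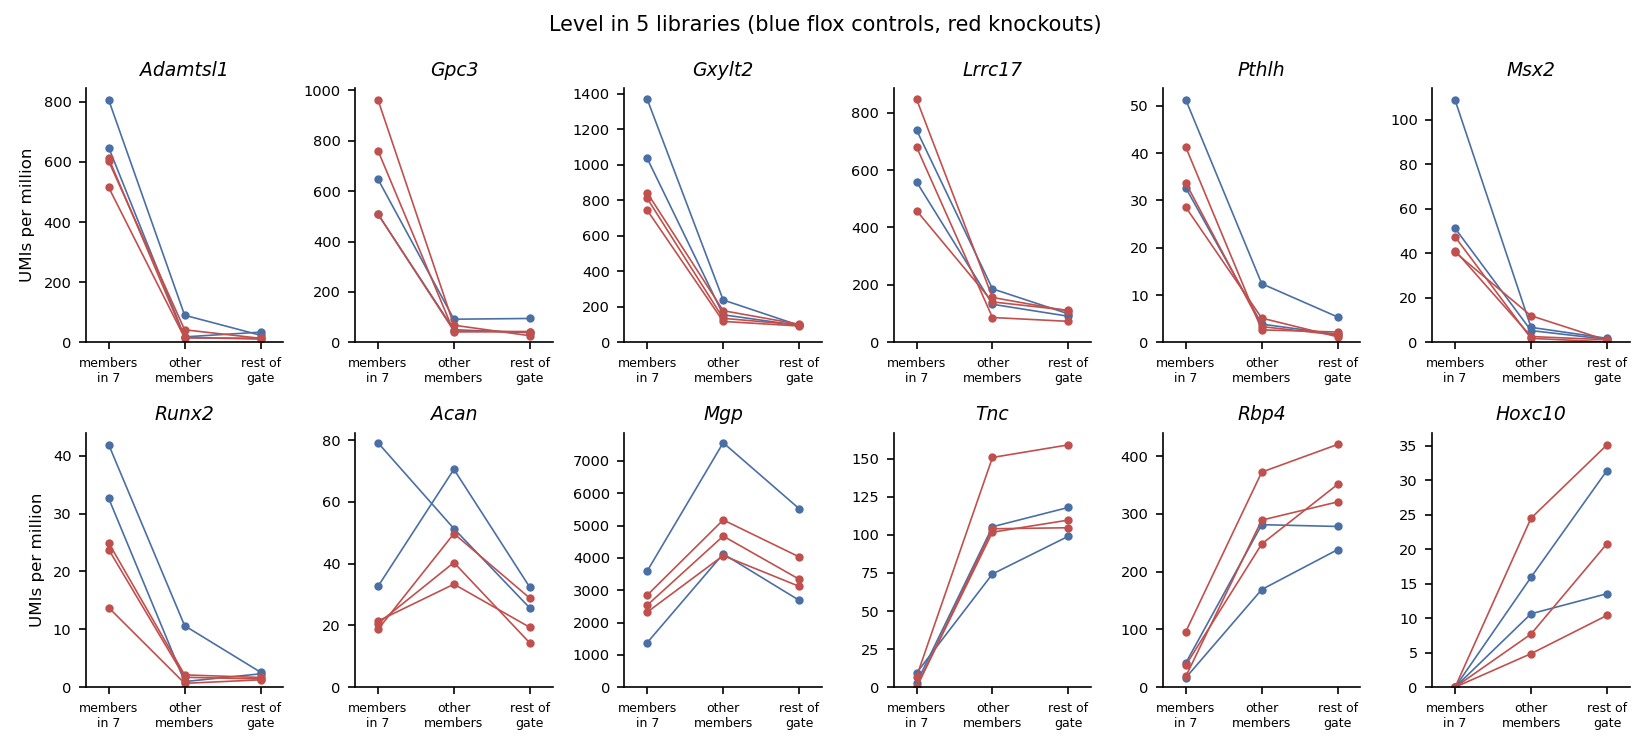
Level of 12 genes in CPM (linear axes from 0) in members of cluster 7, other members and the remaining smooth muscle gate barcodes, with 1 line per library for the 5 libraries that had at least 20 barcodes in each. Adamtsl1 to Runx2 stand highest in the left position, Mgp, Tnc, Rbp4 and Hoxc10 stand lowest there, and Acan and Mgp average highest in the middle.

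The whole set of members was then compared with the other gate barcodes of the same library. UMIs were summed per library and class and tested with edgeR's quasi-likelihood test, with library as a block and TMM scaling, which corrects for a few genes taking a larger share. A gene was called at a Benjamini-Hochberg adjusted p under 0.05. Of 10470 genes tested, leaving out the rule genes, 940 were called (8.98%): 485 higher in members (4.63%) and 455 lower (4.35%). The median log2 difference over all genes was -0.01. Without TMM the split was 714 higher and 269 lower. Without knockout library 2 the count was 585, and without knockout library 3 it was 581. Because members are deeper, the fit was repeated on barcodes thinned to 1500 UMIs, with members chosen anew from the thinned counts. This gave 29, 75 and 97 members in the flox libraries and 44, 119 and 157 in knockout libraries 1 to 3. Knockout library 4, with 8, fell under the minimum of 10 and was left out. In this fit 789 of 8751 genes were called, 346 higher and 443 lower. Of these, 492 were shared with the unthinned calls, which is 52.3% of those and 62.4% of the thinned ones, and 491 had the same sign. Of 94 named genes tested both ways, 60 had a thinned difference more than 1.5 times larger, 9 more than 1.5 times smaller, 18 lost the call and 2 changed sign. With all UMIs and at least 4 markers, 61 of 101 named genes had a difference more than 1.5 times larger. The effects of depth and of the stricter choice cannot be told apart in the thinned values. The thinned value is given beside each gene that lost its call or changed sign and beside some others. Against gate barcodes with 0 of the 8 markers, 1019 of 8343 genes were called, 421 higher and 598 lower. In that comparison 28 of 92 named genes lost the call and 9 changed sign. The set of 0-marker barcodes held more RNA of other cells: the median difference was -3.79 for myeloid, -4.92 for erythroid and -1.63 for fibroblast markers. Against all other gate barcodes these medians were -1.98, -2.07 and -0.20. The 0-marker set was also not matched for depth, so it is no cleaner baseline. Each list count below is to be read beside the counts over all genes of the same fit. Values below are TMM-scaled CPM as mean ± SD over 7 libraries, and log2 differences of members over other gate barcodes with their standard error (SE).

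Among genes that averaged 5 log2 CPM or more and moved 1 way in every library, the matrix gene Adamtsl1 had the largest rise. It stood at 72.0, 177 and 282 CPM in members of flox libraries 1 to 3, and at 69.7, 194, 114 and 79.6 in knockout libraries 1 to 4. The other gate barcodes had 11.6 to 35.8 CPM, so the classes did not overlap. The difference was 2.68 (SE 0.20, adjusted p = 6.79e-09), with members higher in 7 of 7 libraries. Gxylt2, a xylosyltransferase that extends sugars on Notch-type repeats, stood at 121, 373 and 540 CPM in flox members and at 197, 361, 244 and 141 in knockout members. It rose by 1.52 (SE 0.138, adjusted p = 1.12e-07) over 91.4 ± 21.2 CPM, and by 2.38 in thinned barcodes. Gpc3, the cell surface proteoglycan glypican 3, averaged 178 ± 34.3 against 69.3 ± 38.3 CPM (1.64, adjusted p = 4.03e-07). Against barcodes with 0 markers its difference was 0.28 (adjusted p = 0.425), which ends the call. Thbd, thrombomodulin, rose by 1.44, from 39.7 ± 10.9 to 114 ± 48.9 CPM. Lrrc17, a leucine-rich secreted inhibitor of osteoclast formation, rose by 1.13, and F2r, the thrombin receptor, by 1.14. Fez1, Bdnf, Uaca, Tspan7, Gdf10, Dipk2a, Lama2, Abi3bp and Acan, described with the cartilage genes, completed the 15 largest rises of this kind, at 0.82 to 1.26. Against barcodes with 0 markers Gdf10 and Lama2 did not pass, at -0.31 and -0.04.

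The cartilage matrix list had 30 genes, of which 13 had enough UMIs to be tested, and 7 rose and 1 fell (median 0.63). A gene that passed the filter through members alone had to differ, so the count is given as a description. In the comparison with 0-marker barcodes 3 rose and 2 fell of 11. Col2a1, Cnmd and the type IX and XI collagens were not tested, and outside the 2 Chad-rich barcodes they were at or near 0. Acan averaged 76.1 ± 62.2 CPM in members and 30.7 ± 23.0 in the others, higher by 1.15 (SE 0.16, adjusted p = 3.43e-05) and in 7 of 7 libraries. Its 203 CPM in knockout library 4 came from 18 members, and members of the other 6 libraries had between 30.8 and 112 CPM. Vcan, the proteoglycan versican, rose by 0.75 (SE 0.0814, adjusted p = 1.12e-06), and by 1.31 in thinned barcodes. Col27a1, a cartilage collagen, was higher by 0.85 (adjusted p = 0.00183), and its thinned difference of 0.99 did not pass (adjusted p = 0.082). Mgp was higher by 0.28 (adjusted p = 0.000827), but turned to -0.22 in thinned barcodes and to -0.50 in barcodes with 5 or more markers. Cytl1 was higher by 2.80 with 1479 CPM in flox library 3 and 4.82 to 150 in the others. Without the 2 Chad-rich barcodes it was higher by 2.01.

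Of 25 regulators of cartilage formation, 20 were tested, 4 were called higher and 1 lower, with a median of 0.12. Thinned, 15 were tested, 2 rose and 1 fell. Compared with 0-marker barcodes, 1 rose and 3 fell of 14, with a median of 0.03. Over all genes, 346 rose and 443 fell of 8751 when thinned. With the 0-marker comparison 421 rose and 598 fell of 8343. Pthlh stood at 4.17, 11.02 and 22.7 CPM in flox members and 6.11, 11.6, 9.40 and 8.84 in knockout members, against 1.27 to 5.79 in the other gate barcodes. Members were higher in 6 of 7 libraries, by 2.00 (SE 0.284), and only flox library 1 was not. Runx2 stood at 2.09, 8.95 and 18.9 CPM in flox members, and 1.83, 7.70, 6.68 and 8.84 in knockout members. It was higher in 6 of 7 libraries, by 1.60 (SE 0.324) over 2.87 ± 1.68 CPM. Both genes were sparse and met the low-count filter mainly through members. These differences, and the count of 4 that holds them, are therefore given as a description. Neither gene had enough UMIs to be tested after thinning. Prrx1, a mesenchymal homeobox factor, rose by 0.51 (adjusted p = 1.82e-05), and its call ended against barcodes with 0 markers (0.15, adjusted p = 0.43). Fgfr3, the growth plate receptor, was as sparse, at 5.31 CPM over all members and 2.69 over the other gate barcodes. It was higher by 0.99, also a description, and its call ended without the 2 Chad-rich barcodes (0.88). Sox6, which acts with Sox9 in cartilage, fell by 0.50 (adjusted p = 0.000945).

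Genes that set mineral deposition gave 6 rises and no fall among 12 tested of 20, with a median of 0.45, and 3 rises among 12 when thinned. With 0-marker barcodes as the comparison, 3 rose and 1 fell of 12. Ank, which exports the mineralisation inhibitor pyrophosphate, averaged 173 ± 39.8 CPM in members and 106 ± 16.7 in the others. It was higher in 7 of 7 libraries, by 0.71 (SE 0.0766, adjusted p = 1.14e-06). Enpp1, which makes pyrophosphate, was higher by 0.42 (adjusted p = 0.0263), and by 1.00 after thinning. Its call ended without flox library 2 (0.40, adjusted p = 0.081), knockout library 2 (0.35) or knockout library 3 (0.41). Tnfrsf11b, the osteoclast inhibitor osteoprotegerin, was higher by 0.73, and Bmp2, a bone-inducing signal, by 0.53. Neither passed in thinned barcodes, at 0.23 (adjusted p = 0.76) and 0.09 (adjusted p = 0.94).

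BMP pathway genes had 12 rises and no fall among 26 tested of 31 (median 0.25), and 5 rises among 24 when thinned. Set against 0-marker barcodes, 9 rose and 2 fell of 23. Grem1, a secreted BMP antagonist, stood at 31.3, 24.1 and 10.1 CPM in flox members and 4.89, 19.9 and 16.1 in knockout libraries 1 to 3, against 0.446 to 5.46 in the other gate barcodes. Its 274 CPM in knockout library 4 were 31 UMIs of 1 barcode. It was higher by 3.45 (SE 0.362), and only 79 members (4.31%) held a UMI of it. Bmper, a BMP-binding protein, was higher by 1.69 (SE 0.356). Both genes met the low-count filter mainly through members, so their differences, and the count of 12 that holds them, are given as a description. Gdf10, a BMP-like ligand, rose by 0.88. Bmpr1b, a BMP receptor, rose by 0.70, and by 1.72 when thinned. Id4, a target of BMP signalling, averaged 172 ± 43.5 against 122 ± 32.5 CPM, higher by 0.53 (adjusted p = 1.56e-05) and by 1.02 when thinned.

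In the TGF-beta pathway 5 of 18 genes rose and 1 fell (median 0.11), and 4 of the 5 were the latent TGF-beta binding proteins, which store the growth factor in the matrix. Ltbp2 rose by 1.42 (SE 0.138, adjusted p = 2.61e-07), from 18.0 ± 3.7 to 46.7 ± 29.0 CPM, in 6 of 7 libraries. Ltbp1, Ltbp3 and Ltbp4 rose by 0.41, 0.42 and 0.34, each in 7 of 7 libraries, and Ltbp1 by 0.80 when thinned. Tgfbr3, the co-receptor betaglycan, rose by 0.39. Tgfbi, a TGF-beta-induced matrix protein, was lower by 0.64 (adjusted p = 0.0126). Its call ended when thinned (-0.58, adjusted p = 0.26) and without flox library 2 (-0.57) or knockout library 3 (-0.34).

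Wnt genes moved in both directions. Among 6 tested of 13 secreted antagonists, 3 rose and 1 fell, with thinning only 1 rose, and against barcodes with 0 markers 2 rose and 2 fell. Sfrp2 stood at 158, 659 and 784 CPM in flox members and 210, 658, 242 and 301 in knockout members, against 119 to 249 in the other gate barcodes. It was higher by 1.03 (SE 0.171, adjusted p = 0.000273) in 6 of 7 libraries, with flox library 1 the exception, and by 1.75 when thinned. Against barcodes with 0 markers its call ended (0.45, adjusted p = 0.29). Wif1 was higher by 0.56 (adjusted p = 0.0427), which ended without the 2 Chad-rich barcodes (0.21, adjusted p = 0.273). Dkk3 was higher by 0.19 (adjusted p = 0.0284) and did not pass when thinned (0.18, adjusted p = 0.33). Sfrp4 was lower by 0.59 (adjusted p = 0.00277), with no call when thinned (-0.92, adjusted p = 0.13). Of 18 Wnt ligands, receptors and targets tested, 2 rose and 2 fell. Rspo3, which amplifies Wnt signals, rose by 1.06 (SE 0.13, adjusted p = 7.42e-06). Wnt5a was higher by 0.49 (adjusted p = 0.0201), a call that ended without flox library 3 (0.41, adjusted p = 0.069) and turned to -0.51 against barcodes with 0 markers. The ligand Wnt16 fell by 0.76 (adjusted p = 3.82e-06), from 54.5 ± 11.3 to 30.2 ± 10.6 CPM, and the receptor Fzd1 by 0.34. Lpar1, a receptor for the lipid that autotaxin makes, was higher by 1.03 (SE 0.203, adjusted p = 0.00161), the 1 gene called among 5 tested of that pathway. Against barcodes with 0 markers Lpar1 did not differ in the test (-0.00238, adjusted p = 1).

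Of 20 Hox genes tested out of 30, 7 fell and 2 rose, with a median of -0.43 against -0.01 for all genes. Thinned, 3 of 15 fell and 2 rose, and against barcodes with 0 markers 5 of 14 fell and 2 rose. Hoxc10 stood at 13.6, 7.58 and 11.3 CPM in flox members and 22.6, 5.78, 3.96 and 0 in knockout members. The other gate barcodes had 34.0, 13.5 and 33.9, and 37.1, 22.3, 10.9 and 3.70 CPM, so that members were lower in 7 of 7 libraries while the ranges overlapped. The difference was -1.22 (SE 0.16, adjusted p = 1.72e-05), and -2.55 after thinning. Hoxa10 and Hoxa9, like Hoxc10 genes of posterior position, were lower by 1.22 (adjusted p = 0.00376) and 1.02 (adjusted p = 0.00783). Neither passed when thinned, at -1.96 (adjusted p = 0.18) and -1.86 (adjusted p = 0.10). Over all members Hoxa10 stood at 4.17 CPM and Hoxa9 at 6.54, against 10.5 and 13.4 over the other gate barcodes. Sparse genes like these may have met the low-count filter mainly through the other gate barcodes. Their differences, and the count of 7 that holds them, are therefore a description. The 2 genes that rose have anterior positions in the Hox clusters: Hoxa4 by 0.92 (SE 0.134, adjusted p = 6.65e-05) and Hoxa2 by 0.79 (adjusted p = 0.00259). Among barcodes with 5 or more markers, 9 of 17 tested Hox genes were lower and 2 higher, with a median of -1.73. Over all 10372 genes of that fit, 639 were lower and 558 higher. Some of the Hox falls rest on 0 UMIs in that small set of barcodes.

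Regulators of the outflow tract and neural crest rose in 6 cases and fell in none among 16 tested of 26, with a median of 0.25. Thinned, 5 of 13 rose and 1 fell, and against barcodes with 0 markers 4 rose and 4 fell of 12, with a median of 0.01. Msx2 stood at 2.09, 32.4 and 18.9 CPM in flox members and 6.11, 19.9, 10.9 and 26.5 in knockout members, against 0.25 to 4.62 in the other gate barcodes. It was higher in 7 of 7 libraries, by 3.79 (SE 0.288), and only 124 members (6.76%) held a UMI of it. Msx2 met the low-count filter mainly through members, so this difference, and the count of 6 that holds it, are given as a description. Ednra, the endothelin A receptor, rose by 1.27 (SE 0.162, adjusted p = 1.33e-05), from 9.21 ± 2.32 to 19.2 ± 6.96 CPM, and by 2.31 when thinned. Against barcodes with 0 markers its call ended (0.19, adjusted p = 0.64). Sema3c, a guidance signal of outflow tract septation, rose by 0.72 (adjusted p = 8.67e-08), from 238 ± 54.1 to 401 ± 102 CPM, and by 1.41 when thinned. Msx1, a homeobox factor related to Msx2, rose by 0.82 (SE 0.162, adjusted p = 0.00165). Sema3a, a repellent of nerves and endothelial cells, fell by 0.75 (adjusted p = 0.00578), and by 1.19 when thinned.

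Contractile genes were lower where they were called. Of 33 tested out of 35, 14 fell and none rose, with a median of -0.14. With thinning 16 fell and 3 rose, but against barcodes with 0 markers 5 fell and 7 rose, so this direction depended on the comparison barcodes. Ppp1r14a, the inhibitor of myosin phosphatase, stood at 230, 256 and 200 CPM in flox members and 425, 248, 261 and 124 in knockout members. The other gate barcodes had 286 to 569 CPM, and members were lower in 7 of 7 libraries, by 0.61 (SE 0.0796, adjusted p = 1.56e-05). The tropomyosin genes Tpm2 and Tpm1 fell by 0.43 and 0.39, and the myosin light chain gene Myl6 by 0.30. Synpo2, an actin-bundling protein, was lower by 0.32, and against barcodes with 0 markers it was at 0.02. In the 5 libraries with both kinds of member, Myh11 averaged 3391 CPM in cluster 7 members, 3891 in the other members and 4234 in the remaining gate.

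Elastic fibre genes rose in 4 of 15 cases, with no fall, in 5 of 14 with 1 fall when thinned, and in 3 of 14 with 2 falls against barcodes with 0 markers. Fbln5, which assembles elastin, stood at 576, 954 and 1421 CPM in flox members and 875, 1186, 1108 and 681 in knockout members, against 428 to 639 in the other gate barcodes. It rose in 7 of 7 libraries, by 0.78 (SE 0.0715, adjusted p = 1.23e-07), and by 1.30 when thinned. Mfap5, a microfibril protein, rose by 0.60 (adjusted p = 5.8e-05), and by 1.40 when thinned. Efemp1 was higher by 1.04 and Fbln1 by 0.49, but against barcodes with 0 markers they stood at -0.18 and -0.98. Basement membrane and integrin genes rose in 7 and fell in 5 of 28 cases, and against barcodes with 0 markers in 12 and 2 of 27. Col15a1, a basement membrane collagen, rose by 0.70 (adjusted p = 2.09e-05) and the laminin chain Lama2 by 0.83. Itga5, the fibronectin receptor, fell by 0.43. Itga6, a laminin receptor, was higher by 1.45 over 2.02 ± 1.14 CPM. This and the count of 7 that holds it are a description, for the same reason as Msx2.

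**Figure D5:**
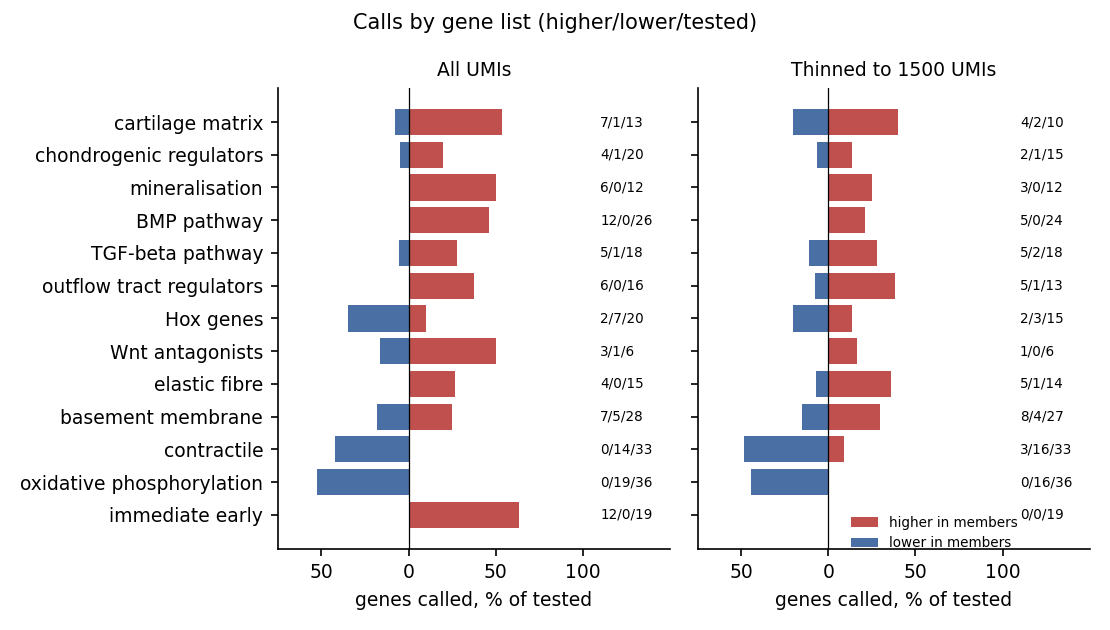
Share of the tested genes of 13 lists that were called higher (right of 0) or lower (left of 0) in members than in the other smooth muscle gate barcodes, from all UMIs and after thinning to 1500 UMIs; the figures at the right of each bar give higher, lower and tested. Calls among BMP, outflow tract and mineralisation genes were mostly higher, calls among contractile and oxidative phosphorylation genes mostly lower, and the 12 calls among 19 immediate early genes were 0 after thinning.

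Genes that answer to handling and genes of other cells moved with the class as well. Immediate early genes were higher in 12 of 19 cases, among them Atf3 by 0.34 and Socs3 by 0.38. None of the 19 was called after thinning, where Atf3 stood at 0.06 and Socs3 at -0.04. Their part in the other calls was not tested. Myeloid markers were lower in 7 of 7 tested cases, with summed levels of 19.8 to 162 CPM in members and 28.4 to 557 in the other gate barcodes. Lyz2, the lysozyme of macrophages, fell by 1.98 (adjusted p = 8.65e-09), and the chemokine Ccl7 by 1.29. Fibroblast markers overlapped, at 4254 to 6868 CPM in members and 3943 to 6731 in the others, with 3 genes higher and 3 lower of 11. Relative to barcodes with 0 markers 1 was higher and 7 lower, with a median of -1.63. Erythroid markers were lower in 3 of 4 tested cases, with a median of -2.07, also a description. In knockout library 4, however, their summed level was higher in members, at 25806 against 7573 CPM. The part of these cell types in the other calls was not tested. Under the limits used for the rises, an average of 5 log2 CPM or more and 1 direction in every library, the 15 largest falls also included C3, Ly6a, Rbp4, Ccn5, Adam33, Pkdcc, Galnt16 and Dhrs3, at -0.57 to -0.96. In thinned barcodes Rbp4 fell by 1.48, while C3 (-1.08, adjusted p = 0.12), Ly6a (-0.48, adjusted p = 0.34) and Pkdcc (-0.71, adjusted p = 0.29) did not pass. Nuclear genes of oxidative phosphorylation, which encode parts of the respiratory chain, fell in 19 of 36 cases and rose in none, with a median of -0.20 and 16 falls when thinned. Only 1 of 36 fell against barcodes with 0 markers, none rose and the median was -0.07. Cox7c and Atp5e fell by 0.34 and 0.36.

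Genotype was compared within members, with 3 flox and 4 knockout libraries in the same kind of test. Of 9342 genes tested, 0 were called (0%) by edgeR's quasi-likelihood test, and 425 had an unadjusted p under 0.05, of which 161 were higher and 264 lower in the knockouts. DESeq2 called 2. The flox and knockout libraries did not overlap for 537 genes (5.75%). With only 35 arrangements of 3 and 4 libraries, many of 9342 genes separate without any genotype effect. A lack of overlap in a single gene is therefore no support. Slc38a2 itself stood at 353, 383 and 499 CPM in flox members and 276, 345, 465 and 264 in knockout members. The groups overlapped, and the difference was -0.25 (SE 0.216, adjusted p = 0.99). The deletion is labelled as endothelial, so this level in smooth muscle barcodes is no check of it. Slc38a2 was higher in members than in the other gate barcodes by 0.23 (adjusted p = 0.0114), a call that ended without flox library 2 (0.21, adjusted p = 0.055) and against barcodes with 0 markers (0.15, adjusted p = 0.34).

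None of the 8 markers passed the genotype test. Chad averaged -4.66 on the log2 scale in knockouts against flox members, which came from the 2 barcodes of flox library 3: its levels were 0, 0.707 and 1109 CPM in flox members and 21.6, 12.5, 10.9 and 9.43 in knockouts. Without those barcodes the difference was 0.52, and without flox library 3 it was 4.84. Sox9 stood at 118, 110 and 217 CPM in flox members and at 87.6, 167, 162 and 207 in knockouts. The groups overlapped, with a difference of 0.0032 (SE 0.288, adjusted p = 1). Frzb, Enpp2, Lamc3, Smoc1, Sost and Tfap2b differed by -0.43, 0.09, -0.19, -0.28, -0.14 and 0.38, with SEs of 0.183 to 0.423.

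The gene with the smallest p was Cpeb2, which encodes a cytoplasmic polyadenylation binding protein. It stood at 48.4, 42.4 and 52.9 CPM in flox members and 14.6, 16.4, 22.5 and 18.9 in knockouts. The groups did not overlap, the difference was -1.36 (SE 0.222), and the adjusted p of 0.386 did not pass. Tmem258, a subunit of the oligosaccharyltransferase complex, stood at 66.7, 62.9 and 94.1 CPM in flox members and 140, 125, 120 and 151 in knockouts (0.82, adjusted p = 0.879). Hhip, the hedgehog-interacting protein, stood at 58.1, 35.4 and 94.1 CPM and at 7.62, 26.2, 20.2 and 28.3 (-1.70, adjusted p = 0.879). Of the other genes with the 10 smallest p-values, Cmss1, Slc4a4, Serpinf1, Fbxl17, Pcdh9 and Ccl7 were lower in the knockouts, at -1.10 to -2.13, and Cpeb1 was higher at 1.27, all short of the threshold. In the other gate barcodes the genotype difference was -1.45 for Hhip, -1.47 for Cmss1, -1.09 for Serpinf1 and -1.11 for Ccl7. The 11 fibroblast markers, with Serpinf1 among them, were all lower in knockout members, with a median of -1.06 and 0 calls, and their part in these differences was not tested.

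A test of whether the genotype effect differed between members and the other gate barcodes called 0 of 10479 genes (0%) by edgeR, with 347 at an unadjusted p under 0.05. The smallest adjusted p was 0.435, for Thbs1, which encodes the matrix glycoprotein thrombospondin. In members Thbs1 was lower in knockouts by 1.31, and in the other gate barcodes it was higher by 0.78. Its level was 109, 33.7 and 206 CPM in flox members and 44.6, 55.9, 40.1 and 26.5 in knockout members. Cpeb2 was next, at -1.36 in members and -0.38 in the other gate barcodes (adjusted p = 1). Has1, Ccl7 and Arhgap24 completed the 5 smallest p-values under the same limits, also with an adjusted p of 1. In simulated counts of 9088 genes, 200 that were not sparse were given known changes. The genotype test recovered 56% of 2-fold and 99% of 4-fold changes, and 17 of its 172 calls were false. In the same kind of simulation the interaction test recovered 62% and 93%, and 22 of its 177 calls were false. In both tests the share of false calls was above the threshold of 0.05. Counts were drawn from the fitted mean and spread of each gene, without single barcodes that hold most UMIs of a gene. The rates may not hold in the real counts, and they do not cover sparse genes.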

How the data were processed

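Single-cell RNA was measured in 7 aorta libraries, and the authors deposited raw UMI counts per gene and barcode. Per the submitters' processing notes the tools were CASAVA 1.8, STARsolo 2.7.10a and Seurat with genome build mm10. The 31253 genes of each matrix were read as deposited, and gene positions were taken from GENCODE vM21, which matched 99.53% of the identifiers. The members, gene lists and tests were chosen with earlier results of these data known. UMI counts were summed per library and class where a library had at least 10 members, filtered with filterByExpr, and tested with edgeR 4.0.16 (quasi-likelihood, TMM, Benjamini-Hochberg threshold 0.05), with DESeq2 1.42.0 as an alternative. In simulated counts of 10335 genes, 200 with a mean over 20 UMIs were given 2-fold or 4-fold changes. The class test called 91% of the 2-fold changes, and 10 of its 197 calls were false. Sparser genes were not changed, so the rates do not cover them. Barcodes were clustered with scanpy 1.11.5 (20 components, resolution 0.5), and doublets were called with Scrublet but kept. Named were the 15 largest rises and falls with the same direction in every library and a mean of at least 5 log2 CPM. Up to 5 genes per list were named by p. The 10 smallest p-values for genotype, and the 5 smallest for the interaction, were taken among genes averaging at least 4 log2 CPM. Predicted genes were left out of both. The Chad-rich barcodes, the cluster comparisons and the set with 5 or more markers were chosen after their values were seen. Exact binomial intervals (95%) cover counting error only. Names of genes that share reads with near-identical copies, such as the globins, are uncertain. Library numbers were not treated as pairs, since the labels name no shared batch.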

Additional observations from a re-analysis of the deposited data

Results flagged for a closer look

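Of 132 sets of 4 to 7 library values examined, 18 had 1 library far from the others by Dixon's criterion, and chance gives about 1 in 20. Most were in knockout library 4, which had 18 members. Log2 differences in this section are log2 ratios of CPM plus 10, unlike the fitted differences above. Rbp4 had 0 UMIs in the members of that library, so its value rests on the added 10 CPM. The log2 difference of knockout library 4 between members and other gate barcodes was -3.58 for Rbp4 (next library -0.909) and -1.05 for Sox6 (-0.519). It was -0.636 for Fgfr3 (0.0462), -1.14 for Ltbp2 (0.517), -0.853 for Msx1 (0.136) and -0.519 for Klf2 (0.227). It was 2.67 for Lpar1 (next 1.2) and 4.7 for Grem1 (next 1.78). The globin genes also stood out in the same library: Hba-a2 at 1.49 (next -2.3), Hbb-bs at 1.47 (next -2.01) and Hba-a1 at 1.52 (next -2.44). The summed erythroid markers of its members were 25800 CPM against 132 in the next library, and 1 barcode held 611 of its 627 Hba-a1 UMIs and 982 of its 1010 Hba-a2 UMIs.

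In the other libraries, Adam33 was nearly level between members and other gate barcodes in flox library 1 (-0.0647, next -0.483), and Prrx1 was highest in knockout library 2 (0.91, next 0.463). Summed endothelial markers of members reached 1460 CPM in flox library 3, against 155 in the next library. That list holds Cytl1, whose UMIs came mostly from the 2 Chad-rich barcodes. Summed adipocyte markers reached 626 CPM in knockout library 3 (next 176), where 1 barcode held 666 of 667 Car3 UMIs and 210 of 212 Adipoq UMIs. Among the knockout members, Cmss1 was low in library 4 at 37.7 CPM (next 106), from 4 UMIs, and Serpinf1 was low in library 3 at 15.4 CPM (next 26.2).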

How the results depend on the processing

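The share difference of 0.908 points turned to -0.0141 with at least 4 markers, -0.163 with barcodes thinned to 1500 UMIs and -0.965 at 1000 UMIs, and ran from -1.25 (without flox library 1) to 2.68 (without knockout library 4) when 1 library was left out; exact permutation p stayed at 0.4 or above. The 940 genes called between members and other gate barcodes became 98 with no replicate block, and 581 to 1093 when 1 library was left out, with 581 without knockout library 3 and 585 without knockout library 2. The count was 1019 of 8343 genes against barcodes with 0 markers and 1197 of 10372 with 5 or more markers. By genotype 0 genes became 2 with DESeq2, 92 with no low-count filter, 18 with a replicate block, and 0 to 10 when 1 library was left out (10 without flox library 2, 1 without flox library 3). The interaction count of 0 became 27 with no filter, 2 with at least 4 markers, and 0 to 1 when 1 library was left out. The count of markers that passed when measured in barcodes chosen by the other 7 went from 0 to 7 with no thinning and to 7 with at least 2 of the other 7; Chad ran from -0.42 (without flox library 3) to 1.06 when 1 library was left out. The cause of these changes was not tested.

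Against barcodes with 0 markers, signs turned for Gdf10 (-0.31), Lama2 (-0.0415), Fbln1 (-0.98), Wnt5a (-0.51), Lpar1 (-0.00238), Synpo2 (0.0232), Efemp1 (-0.18), Mcam (0.13) and Junb (-0.0615). With 5 or more markers they turned for Mgp (-0.50) and Atf3 (-0.51), when thinned for Mgp (-0.22) and Socs3 (-0.0448), and with no replicate block for Hba-a2 (0.80), Hbb-bs (0.71) and Hba-a1 (0.71). In the genotype comparison Chad turned to 0.52 without the 2 Chad-rich barcodes and Enpp2 to -0.0255 with at least 2 markers. Sox9 turned to -0.0343 with no TMM, -0.0793 with a replicate block, -0.12 with at least 2 markers and -0.0722 with at least 20 members per library. Leaving out 1 library gave -0.18 to 0.36 for Sox9, -0.29 to 0.42 for Enpp2, -0.27 to 0.0444 for Sost, -0.80 to 0.28 for Frzb and -5.27 to 4.84 for Chad. Has1 in the interaction was 0.11 with at least 4 markers. Depth limits what members show: 18 members of knockout library 4 held 102340 UMIs, and Pthlh, Runx2, Itga6 and Bmper could not be tested after thinning. Same-numbered libraries had correlations of 0.22, 0.11 and 0.07. Pairs with different numbers ran from -0.29 (flox library 3 and knockout library 1) to 0.13 (flox library 3 and knockout library 4). The labels do not say whether libraries of 1 number shared more than that number.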

Other observations

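Pericyte-associated genes rose in 5 and fell in 2 of 9 tested of 12 (background 4.63% higher and 4.35% lower). Kcnj8, a potassium channel subunit of pericytes and smooth muscle, rose by 0.73 (SE 0.138, adjusted p = 0.000956 by edgeR), from 18.0 ± 3.38 to 27.0 ± 11.7 CPM, and by 1.14 when thinned. Rgs4 was higher by 0.27 and Pdgfrb, the PDGF receptor of mural cells, by 0.27, and neither passed when thinned, at 0.15 (adjusted p = 0.69) and 0.24 (adjusted p = 0.62). Mcam, an adhesion molecule, fell by 0.32 (adjusted p = 0.00196), with 0.13 against barcodes with 0 markers. Rgs5 was detected in 83.9%, 71.1% and 75.9% of members of flox libraries 1 to 3 and in 85.2%, 76.1%, 78.6% and 50.0% of knockout libraries 1 to 4. In each library the share was higher than in the other gate barcodes, where it lay between 15.7% and 83.4%. Knockout library 1 was nearly level, at 85.2% against 83.4%. Members were also deeper in each library, and detection rises with depth. Scaled for depth, Rgs5 stood at 4853 CPM over all members and 4339 over the other gate barcodes.

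Genes of the modulated smooth muscle state rose in 5 and fell in 7 of 20 tested. Lum, the matrix proteoglycan lumican, was higher by 1.18 (adjusted p = 8.96e-05) in 6 of 7 libraries, with 0.07 (adjusted p = 0.92) against barcodes with 0 markers. Tnc fell by 0.46 (adjusted p = 0.000304), in 7 of 7 libraries, and by 2.01 when thinned. Tnfrsf11b rose and Ly6a fell, and neither passed after thinning. The list therefore moved in both directions.

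Amino acid transport and ATF4 genes were called higher in 3 of 15 tested and lower in none, with a median of 0.06. Thinned, 3 were higher and 2 lower of 11, and against barcodes with 0 markers none was higher and 4 were lower of 11, with a median of -0.19. By number of markers, over the 4 libraries with at least 20 barcodes in every step, mean Adamtsl1 went from 16.7 ± 9.16 CPM with 1 marker to 80.1 ± 68.6 with 3 and 528 ± 57.1 with 5 or more (SD, n = 4). Rbp4 went the other way, from 314 ± 48.7 with 1 marker to 107 ± 97.5 with 5 or more. Adamtsl1 with 0 markers, at 40.7 ± 5.63, was above its level with 1, and Hoxc10 was highest with 0 markers, at 37.7 ± 15.004, and at 0 with 5 or more. These levels follow from barcodes ordered by detection, and carry no test.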
